A study of Saccharomyces cerevisiae with 9 samples.

Results

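The genes described here encode the Kennedy pathway of the yeast Saccharomyces cerevisiae, which makes phosphatidylcholine and phosphatidylethanolamine from choline, ethanolamine and diacylglycerol. The 9 members were fixed by name: HNM1, CKI1, PCT1 and CPT1 of the choline branch, EKI1, ECT1 and EPT1 of the ethanolamine branch, and the CTP synthase genes URA7 and URA8. All 9 had a probe set, out of 5449 yeast genes measured. Each was read by 1 probe set, none of which is marked as shared with a similar gene. Total RNA of 3 strains was hybridised to Affymetrix arrays, with 3 arrays per strain. REF is the reference strain, D12 carries the D12-desaturase gene of the fungus Mucor rouxii, and D126 carries the D12-desaturase and D6-desaturase genes of that fungus. All of them were recombinant strains kept in chemostats with glucose as the limiting nutrient (dilution rate 0.1 per h) and harvested at steady state after at least 5 residence times. The sources used here do not give the promoters, vectors or parent strain, or how much choline, ethanolamine or inositol the medium held, and the fungal transcripts were not checked.

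In the Kennedy pathway a base is taken up or released from lipid, phosphorylated by a kinase, activated with CTP by a cytidylyl transferase, and joined to diacylglycerol by a phosphotransferase at the endoplasmic reticulum. CTP synthases supply the CTP. Yeast can also make the same phospholipids from CDP-diacylglycerol by way of phosphatidylserine, and the relative use of these routes depends on the bases available. A D12-desaturase makes linoleic acid from oleic acid and a D6-desaturase makes gamma-linolenic acid from linoleic acid, fatty acids that yeast itself does not make. Such fatty acids can enter the phospholipids that these enzymes build.

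Levels are the log2 expression values deposited by the authors, and a difference of 1 on this scale is a 2-fold change. They are given as mean ± SD over the n = 3 arrays of a strain. Differences were tested with limma over all 5449 genes and called at a Benjamini-Hochberg adjusted p under 0.05. The labels do not state that the replicates of a strain were separate cultures, and the p-values reflect the spread among these arrays, which could be technical. All members lay above the background limit of 5.64, the lowest being EKI1 with a mean of 9.40 over the arrays. Replicate 3 of D12 and replicate 1 of D126 stood apart from the other arrays of their strains in a principal component analysis of all genes. Replicate 3 of D12 lay at -8.92 on the second component, against 2.22 and 2.73 for the other D12 arrays. Replicate 1 of D126 lay at 10.18 on the leading component, against 7.07 and 8.21 for the others. Other arrays lay apart from their strain too. Replicate 3 of REF lay at 3.92 on the second component, against 0.24 and 0.67. Replicate 1 of D12 lay at -2.40 on the leading component, against -5.09 and -5.86. Of the 9 members, 8 had their lowest or highest value on D12 replicate 3 or D126 replicate 1, called the outlying arrays below. That share is near the 75.1% of all genes that did so.

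Transcript levels of the pathway lay close together in the 3 strains. No member passed the test between D12 and REF or between D126 and REF, and URA8 alone passed it between D126 and D12. URA8, the gene of the minor CTP synthase isozyme, was higher in D126 (12.02 ± 0.02) than in D12 (11.86 ± 0.02), a fold of 1.11 with a 95% interval of 1.06 to 1.17. The other members differed by 0.18 or less on the log2 scale in every comparison. The 95% intervals of all 27 differences stayed within 0.37 on the log2 scale, or 1.29-fold, on either side of 0. The widest reach was that of EKI1 between D126 and D12.

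In counts, limma called 0 of 9 members between D12 and REF, where 0% of all genes were called, and 1 of 9 at an unadjusted p under 0.05 (5.98% of all genes). Between D126 and REF it called 0 of 9 members against 21.5% of all genes, and 0 at an unadjusted p under 0.05 against 35.8%. Between D126 and D12 it called 1 of 9, higher in D126, against 22% of all genes in either direction and 7.32% higher. Of the calls over all genes in that comparison 399 were higher and 801 lower, against 593 and 630 with quantile normalization. At an unadjusted p under 0.05 that comparison had 1 of 9 members, against 36% of all genes. With array weights the calls were 2 of 9 between D126 and REF (ECT1 and URA8) and 2 of 9 between D126 and D12 (HNM1 and URA8), where that setting called 48% and 37.8% of all genes. The median absolute difference of the members was 0.05 between D126 and REF, against 0.08 over all genes, and 0.07 between D126 and D12, against 0.08. Between D12 and REF it was larger for the members, 0.047 against 0.039. The median SE was also larger for the members, 0.057 against 0.048 over all genes, which makes calls harder to reach. Between D12 and REF 8 of the 9 members lay below 0, against 40.3% of all genes, with a member median of -0.03 and a median over all genes of 0.01. That count stayed at 8 with quantile normalization, with arrays centred on their medians and without D12 replicate 2. It was lower with array weights and when any REF array, D12 replicate 1 or D12 replicate 3 was left out. Without REF replicate 2, CPT1 (0.019), URA7 (0.0092) and EKI1 (0.057) lay above 0. None of these differences passed the test.

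**Figure D1:**
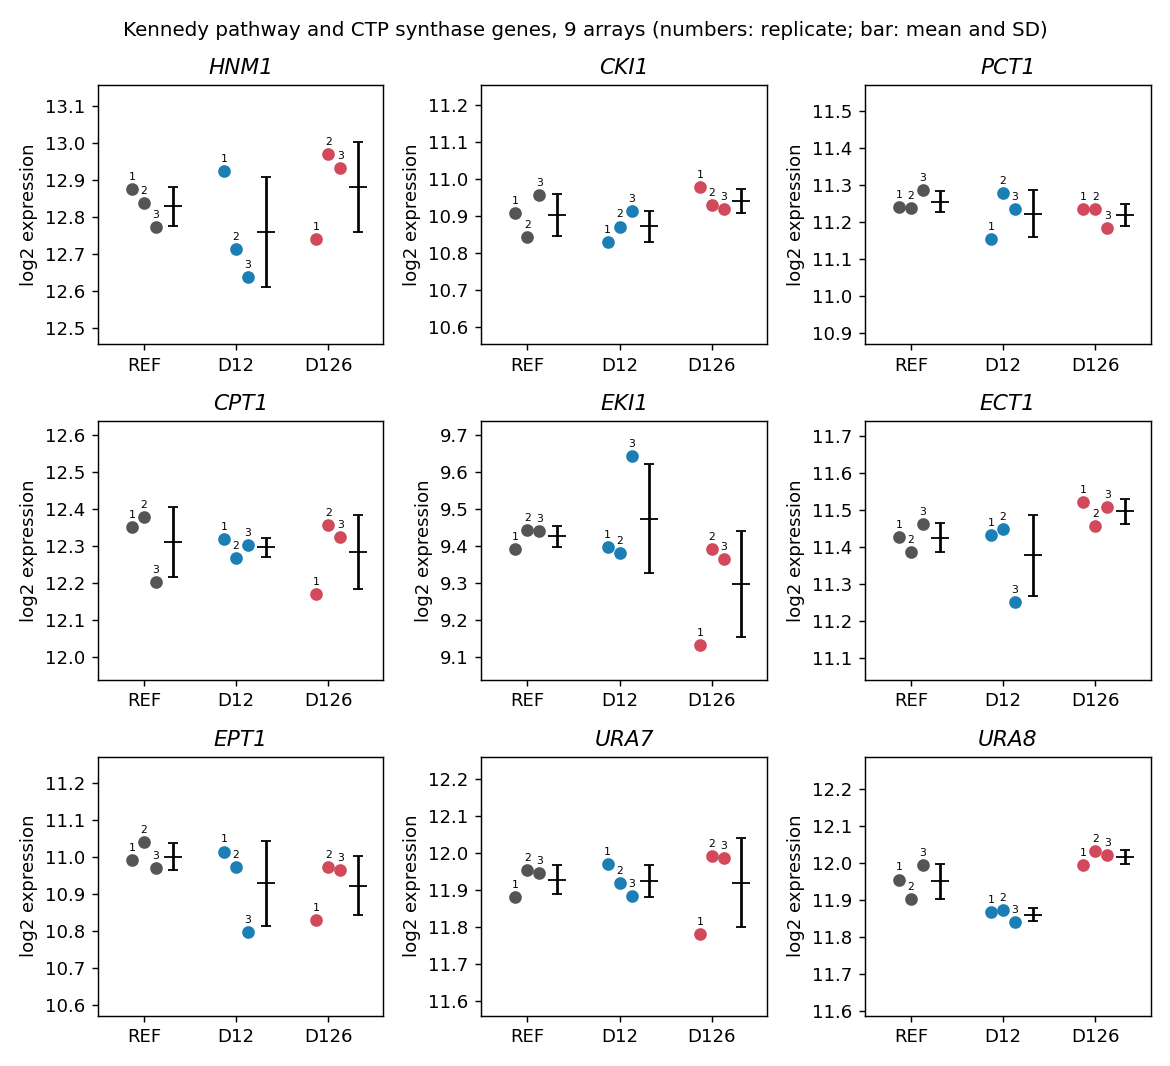
Log2 expression of the 9 members on each array, in panels of equal height, with strains along the horizontal axis, replicate numbers above the points, and a black bar for mean and SD (n = 3). URA8 is the only member whose values separate in all 3 strains. Its nearest REF and D126 points, 11.9947 and 11.9949, are too close to tell apart in the panel. The EKI1 panel shows the widest scatter, from 9.13 to 9.65.

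The choline branch begins with HNM1, the plasma membrane transporter of choline, which also carries ethanolamine. HNM1 read 12.88, 12.84 and 12.77 in REF, 12.92, 12.71 and 12.64 in D12, and 12.74, 12.97 and 12.93 in D126. The strains overlapped, and the scatter within D12 and D126 was wider than the gaps between the strain means. The means were 12.83 ± 0.05, 12.76 ± 0.15 and 12.88 ± 0.12. HNM1 differed by -0.07 (SE 0.08) between D12 and REF, by 0.05 between D126 and REF and by 0.12 between D126 and D12, with adjusted p of 0.89, 0.685 and 0.315. With single arrays left out these differences ranged from -0.15 (without D12 replicate 1) to -0.0098 (without D12 replicate 3), from 0.0076 (without D126 replicate 2) to 0.12 (without D126 replicate 1), and from 0.062 (without D12 replicate 3) to 0.20 (without D12 replicate 1). Its within-strain SD, 0.115, exceeded that of 88.5% of all genes. Without replicate 3 of D12 and replicate 1 of D126 the difference between D126 and REF was 0.12 (adjusted p = 0.198) and that between D12 and REF was -0.01 (adjusted p = 0.975), neither of them called.

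CKI1 encodes choline kinase, which phosphorylates choline. Its values were 10.91, 10.84 and 10.96 in REF, 10.83, 10.87 and 10.91 in D12, and 10.98, 10.93 and 10.92 in D126. All D126 values lay above all D12 values, by a narrow gap between 10.917 and 10.913, while REF overlapped with both. CKI1 differed by 0.07 (SE 0.04) between D126 and D12, with an adjusted p of 0.245. Its differences from REF were -0.03 in D12 and 0.04 in D126 (adjusted p = 0.898 and 0.532). Without REF replicate 2 they were -0.061 and 0.0083, and without REF replicate 3 they were -0.0041 and 0.065.

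PCT1 encodes choline-phosphate cytidylyl transferase, the step that consumes CTP and is regarded as rate-limiting for the choline branch. PCT1 read 11.24, 11.24 and 11.29 in REF, 11.15, 11.28 and 11.23 in D12, and 11.23, 11.23 and 11.18 in D126. The D126 values all lay just under the REF values, with 11.235 below 11.236, and D12 spanned both. The gene had the narrowest range of the members over the 9 arrays, 0.133, against a median of 0.241 over all genes. PCT1 differed by -0.03 in D12 and by -0.04 in D126 from REF (SE 0.04, adjusted p = 0.89 and 0.541), and the strains with desaturases differed from each other by -0.004 (adjusted p = 0.955).

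CPT1 encodes cholinephosphotransferase, which completes phosphatidylcholine. The CPT1 values were 12.35, 12.38 and 12.20 in REF, 12.32, 12.27 and 12.30 in D12, and 12.17, 12.36 and 12.33 in D126. The strain means lay within 0.03 of each other, at 12.31 ± 0.09, 12.30 ± 0.03 and 12.29 ± 0.10. All 3 adjusted p for CPT1 were at least 0.783, and the intervals allowed differences of up to 0.16 on the log2 scale.

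The ethanolamine branch begins with EKI1, the ethanolamine kinase, which can also act on choline. EKI1 read 9.39, 9.45 and 9.44 in REF, 9.40, 9.38 and 9.65 in D12, and 9.13, 9.39 and 9.37 in D126. Replicate 3 of D12 was the highest and replicate 1 of D126 the lowest, and the remaining 7 arrays lay between 9.37 and 9.45. EKI1 had the largest difference of any member, -0.18 (SE 0.08) between D126 and D12, with an adjusted p of 0.162. Its difference from REF was 0.05 in D12 and -0.13 in D126 (adjusted p = 0.924 and 0.307). Without both of the outlying arrays the difference between D126 and D12 was -0.01 (adjusted p = 0.854).

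ECT1, also called MUQ1, encodes ethanolamine-phosphate cytidylyl transferase. Its values were 11.43, 11.39 and 11.46 in REF, 11.43, 11.45 and 11.25 in D12, and 11.52, 11.46 and 11.51 in D126. All D126 values were above all D12 values (11.459 against 11.450 at the nearest), and replicate 3 of D12 was the lowest of the 9 arrays. ECT1 differed by 0.12 (SE 0.05) between D126 and D12, with an adjusted p of 0.146, and by 0.04 (adjusted p = 0.458) without both outlying arrays. Between D126 and REF it differed by 0.07 (adjusted p = 0.374). This passed the test only with array weights (0.08, adjusted p = 0.0364), among 18 alternatives with adjusted p from 0.0364 to 0.643.

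EPT1 encodes ethanolaminephosphotransferase, which completes phosphatidylethanolamine and also accepts CDP-choline. EPT1 read 10.99, 11.04 and 10.97 in REF, 11.01, 10.97 and 10.80 in D12, and 10.83, 10.97 and 10.96 in D126. Replicate 3 of D12 and replicate 1 of D126 were the low values, and the other arrays lay between 10.96 and 11.04. EPT1 differed by -0.07 in D12 and -0.08 in D126 from REF (SE 0.06, adjusted p = 0.865 and 0.395). Without both outlying arrays these differences were -0.01 and -0.03 (adjusted p = 0.966 and 0.493).

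**Figure D2:**
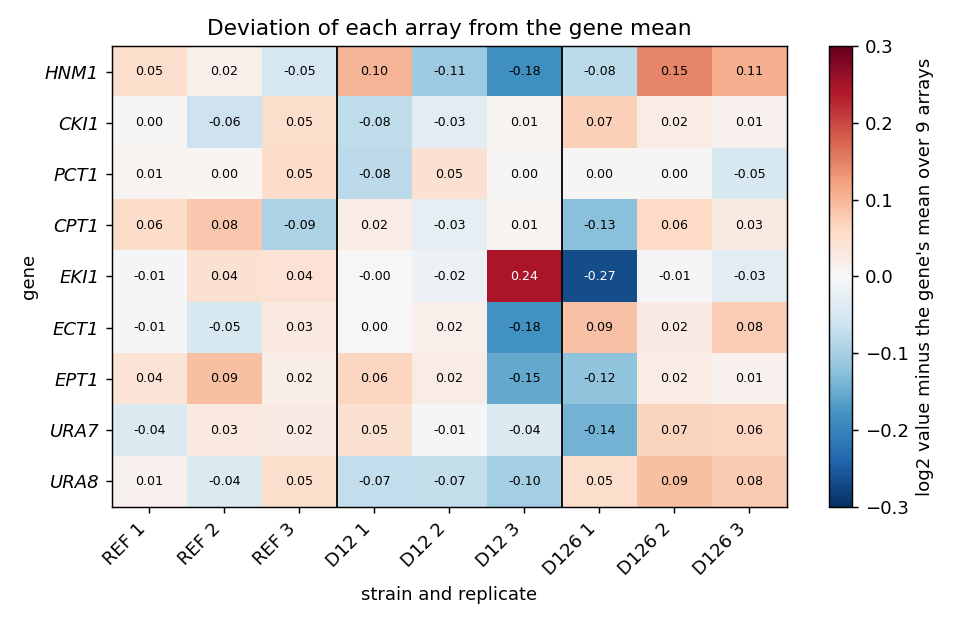
Deviation of each array (columns) from the mean of each gene (rows) over the 9 arrays, on the log2 scale, with red above and blue below the mean. The darkest cells are EKI1 on replicate 3 of D12 (0.24) and on replicate 1 of D126 (-0.27), while the URA8 row is below its mean on all D12 arrays and above it on all D126 arrays.

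URA7 and URA8 encode the CTP synthase isozymes, which convert UTP to CTP, and Ura7 is known as the major one. The values of URA7 were 11.88, 11.95 and 11.95 in REF, 11.97, 11.92 and 11.88 in D12, and 11.78, 11.99 and 11.99 in D126. Its strain means lay within 0.01 of each other, at 11.93 ± 0.04, 11.92 ± 0.04 and 11.92 ± 0.12, and the adjusted p were 0.942 or higher in all 3 comparisons. Without both outlying arrays URA7 differed by 0.06 between D126 and REF (adjusted p = 0.216), still not called.

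URA8 read 11.95, 11.90 and 11.99 in REF, 11.87, 11.87 and 11.84 in D12, and 11.99, 12.03 and 12.02 in D126. The D12 arrays were all lower than REF and the D126 arrays all higher, though the nearest REF and D126 values were 11.9947 and 11.9949. URA8 differed by 0.16 (SE 0.03) between D126 and D12, with an adjusted p of 0.0114. Its difference from REF was -0.09 (SE 0.03, adjusted p = 0.81) in D12 and 0.07 (SE 0.03, adjusted p = 0.196) in D126, and neither was called. The moderated F-test for any difference among strains called URA8 alone (adjusted p = 0.0258), 1 of 9 members against 20.1% of all genes. That F-test call was lost without REF replicate 1, D12 replicate 2, D126 replicate 2 or D126 replicate 3, without both outlying arrays, over all non-control probe sets, and with a replicate block over the 9 arrays. URA8 ranked 787 of 5449 genes by that test.

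The strains separated completely, in whatever order, for 1 of 9 members and for 3.54% of all genes. For single comparisons, 1 member did not overlap between D12 and REF (10.2% of all genes), 2 did not between D126 and REF (PCT1 and URA8, against 47.9%), and 3 did not between D126 and D12 (CKI1, ECT1 and URA8, against 38.4%). URA8 had a within-strain SD of 0.031, the smallest of the members and below that of all but 10.6% of genes. The difference between D126 and D12 stayed between 0.15 and 0.17 with each array left out in turn, with adjusted p from 0.0136 to 0.0468. It was 0.16 (adjusted p = 0.0291) without both outlying arrays. The call was lost in 2 of 18 alternatives. These were all non-control probe sets in the adjustment (adjusted p = 0.0582) and D12 and D126 alone with a replicate block (adjusted p = 0.108).

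**Figure D3:**
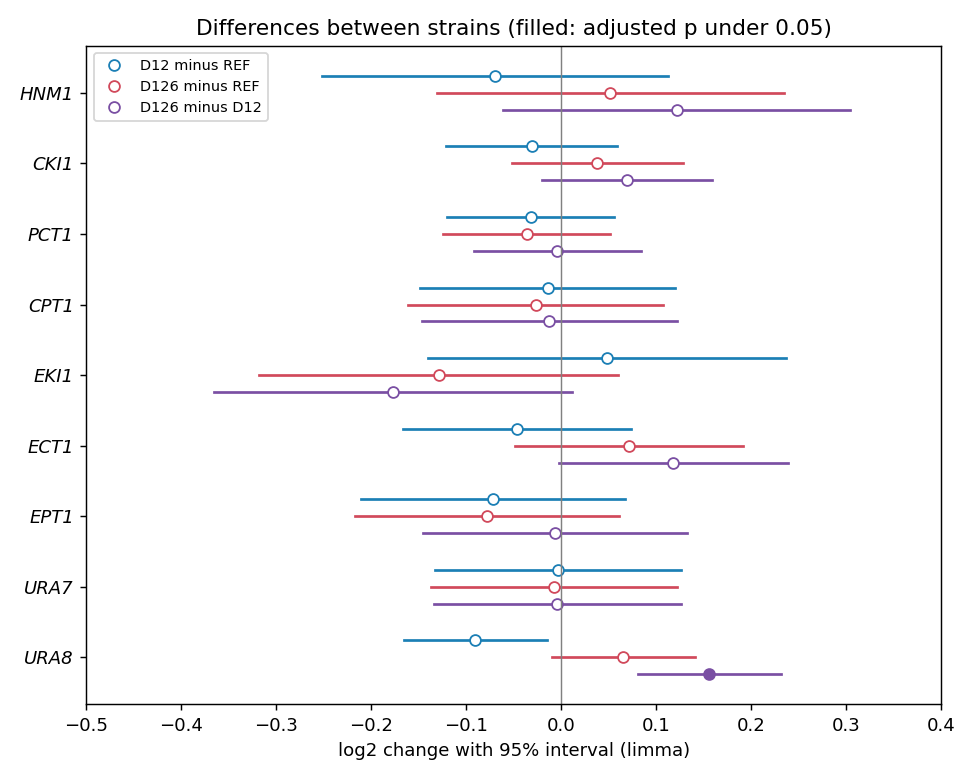
Log2 changes of the 9 members (rows) in the 3 comparisons (colours), with 95% intervals from limma, where a filled point marks an adjusted p under 0.05. The interval includes 0 for 25 of the 27 differences, and the exceptions are URA8 between D126 and D12 (0.16) and URA8 between D12 and REF (-0.09), the latter not called after adjustment.

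The members did not move as a block over the arrays. Pearson correlations between pairs of members over the 9 arrays ran from -0.87 for EKI1 and ECT1 to 0.73 for ECT1 and URA8. Which pairs lay at the extremes depended on replicate 3 of D12 and replicate 1 of D126, though ECT1 and URA8 kept 0.62 without them. Over the other 7 arrays r ran from -0.88 for ECT1 and EPT1, which had 0.29 over all 9, to 0.87 for CKI1 and URA8, which had 0.67. EKI1 and ECT1, the kinase and the cytidylyl transferase genes of the ethanolamine branch, had an r of -0.61 over those 7 arrays. In the choline branch CKI1 and PCT1 had an r of 0.41 over 9 arrays and 0.47 over 7, and CKI1 and CPT1 had -0.64 and -0.43. The phosphotransferase genes CPT1 and EPT1 had an r of 0.53 over either set of arrays, and the CTP synthase genes 0.10 over 9 and 0.38 over 7. These values are descriptions over arrays that share strains and normalization. The genes outside the pathway most similar to URA8 over the 9 arrays were ADH3, a mitochondrial alcohol dehydrogenase gene (r = 0.92), YNL046W (r = 0.92) and STE4, the beta subunit gene of the pheromone-response G protein (r = 0.91).

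Around the pathway 6 lists of genes were examined, and limma called at least 1 gene in each of them, other than the CDP-diacylglycerol route, in a comparison with D126. The counts were not tested against those of all genes. The first list held 8 measured genes chosen as sources of choline or ethanolamine or of glycerophospho-forms. It does not separate them by the lipids their products act on. Of the 8, 1 rose and 3 fell in D126 against REF. In all genes of that comparison 8.59% rose and 12.9% fell. PLB3, a phospholipase B gene, read 10.85, 10.66 and 10.64 in REF and 11.17, 11.10 and 11.16 in D126, and rose by 0.43 (SE 0.05, adjusted p = 0.000757). PLB2, another phospholipase B gene, read 11.99, 11.94 and 11.94 in REF and 11.35, 11.64 and 11.66 in D126, and fell by 0.40 on the log2 scale (adjusted p = 0.00782). GIT1, the transporter of glycerophosphoinositol and glycerophosphocholine, fell by 0.37 on the log2 scale (adjusted p = 0.000608). Against D12, 2 of the 8 rose and 2 fell in D126, where 7.32% of all genes rose and 14.7% fell. They include NTE1, which breaks phosphatidylcholine down to glycerophosphocholine, with a rise of 0.26 (adjusted p = 0.0126). PLB3 (0.34), PLB2 (-0.48) and GIT1 (-0.23) moved as against REF, but these comparisons share the D126 arrays. GPC1 of this list was not matched to a probe set.

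Of 11 genes that supply phosphatidate and diacylglycerol, 2 rose and 2 fell in D126 against REF, where 8.59% of all genes rose and 12.9% fell. SLC1, an acyltransferase that makes phosphatidate, read 12.06, 12.08 and 12.01 in REF and 12.32, 12.28 and 12.28 in D126, and rose by 0.24 (SE 0.05, adjusted p = 0.0112). The genes that fell were PAH1, the phosphatidate phosphatase that makes diacylglycerol, and NEM1, the catalytic subunit of the phosphatase that activates Pah1. PAH1 read 10.53, 10.58 and 10.53 in REF and 10.32, 10.30 and 10.36 in D126, a fall by 0.22 on the log2 scale (adjusted p = 0.00154), and NEM1 fell by 0.29 (adjusted p = 0.0121). SPO7, the regulatory partner of Nem1, was not called. Against D12, 2 of the 11 rose and 2 fell in D126, where 7.32% of all genes rose and 14.7% fell. SLC1 rose by 0.32 (adjusted p = 0.0035) and SCT1, a glycerol-3-phosphate acyltransferase gene, rose by 0.22 (adjusted p = 0.00592). PAH1 fell by 0.10 (adjusted p = 0.0418), near the threshold. NEM1 fell by 0.22 in that comparison (adjusted p = 0.0388), a call lost in 11 of 18 alternatives, among them those without REF replicate 2 (adjusted p = 0.0608), D12 replicate 1 (0.0774), D12 replicate 3 (0.0906), D126 replicate 1 (0.12) and D126 replicate 3 (0.106).

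The list of the alternative route held 7 genes, which make CDP-diacylglycerol or lead from it by way of phosphatidylserine. Limma called 0 of the 7 in any comparison, against 21.5% of all genes between D126 and REF and 22% between D126 and D12. At an unadjusted p under 0.05 there was 1 in each comparison with D126, against 35.8% and 36% of all genes. With array weights 4 were called between D126 and REF, where that setting called 48% of all genes, and 3 between D126 and D12, where it called 37.8%. CHO2, the phosphatidylethanolamine methyltransferase gene, had its largest difference between D126 and REF, 0.12 (adjusted p = 0.13), and was called without both outlying arrays (adjusted p = 0.0497). PSD1, the mitochondrial phosphatidylserine decarboxylase gene, differed by 0.14 between D126 and D12 (adjusted p = 0.0613). It was called without D12 replicate 1 (adjusted p = 0.0412).

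Among 5 regulators of the inositol-choline response, INO2, an activator subunit that binds lipid gene promoters with Ino4, was the gene called. Its calls were in D126 against REF and against D12, where 21.5% and 22% of all genes were called. INO2 read 9.93, 10.03 and 10.17 in REF, 9.96, 9.99 and 9.97 in D12, and 9.64, 9.71 and 9.75 in D126, all D126 values below the others. It fell by 0.34 against REF and by 0.27 against D12 (adjusted p = 0.00338 and 0.0103), while the call against D12 was lost without both outlying arrays (adjusted p = 0.054). No change of the Kennedy pathway genes was called beside it in D126 against REF.

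UTP, the substrate of the CTP synthases, is made through URA genes and YNK1, 8 listed genes in all. In D126 against REF, 2 rose and 1 fell, beside 8.59% and 12.9% of all genes. URA3, the orotidine-5′-phosphate decarboxylase gene, read 15.32, 15.30 and 15.34 in REF, 15.37, 15.36 and 15.36 in D12, and 14.17, 14.22 and 14.17 in D126. It fell by 1.13 against REF and by 1.18 against D12 on the log2 scale (adjusted p = 1.29e-07 and 9.06e-08), and it is the gene among the 3 calls against REF that went down. Its REF and D12 values lay near 15.51, the highest value of any probe set, and whether differences were compressed there was not tested. URA1, the dihydroorotate dehydrogenase gene, rose by 0.62 against REF and 0.74 against D12 (adjusted p = 0.000283 and 0.000142), and URA2, which starts the pathway, rose by 0.20 and 0.22 (adjusted p = 0.0017 and 0.00116). URA10, an orotate phosphoribosyltransferase gene, fell by 0.25 against D12 (adjusted p = 0.0165), a call lost without D126 replicate 3 (adjusted p = 0.0645). Of 4 genes of pyrimidine salvage, limma called 0 in D126 against REF, beside 21.5% of all genes, and 1 against D12, beside 22%. At an unadjusted p under 0.05 there were 2 against REF, beside 35.8% of all genes. CDD1, a cytidine deaminase gene, differed by -0.18 from REF (adjusted p = 0.0565). It was called with replicate numbers as a block, for REF and D126 alone (adjusted p = 0.0427) and over all 9 arrays (0.0495). It was also called without D126 replicate 3 (adjusted p = 0.0424). FCY1, a cytosine deaminase gene, rose by 0.13 against D12 (adjusted p = 0.0385), and each of 8 single arrays left out ended that call (adjusted p from 0.0581 to 0.13). Between D12 and REF no gene of these 6 lists was called, beside 0% of all genes. At an unadjusted p under 0.05 there were 3 of their genes, among them GIT1 (-0.14) and PAH1 (-0.12), beside 5.98% of all genes.

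**Figure D4:**
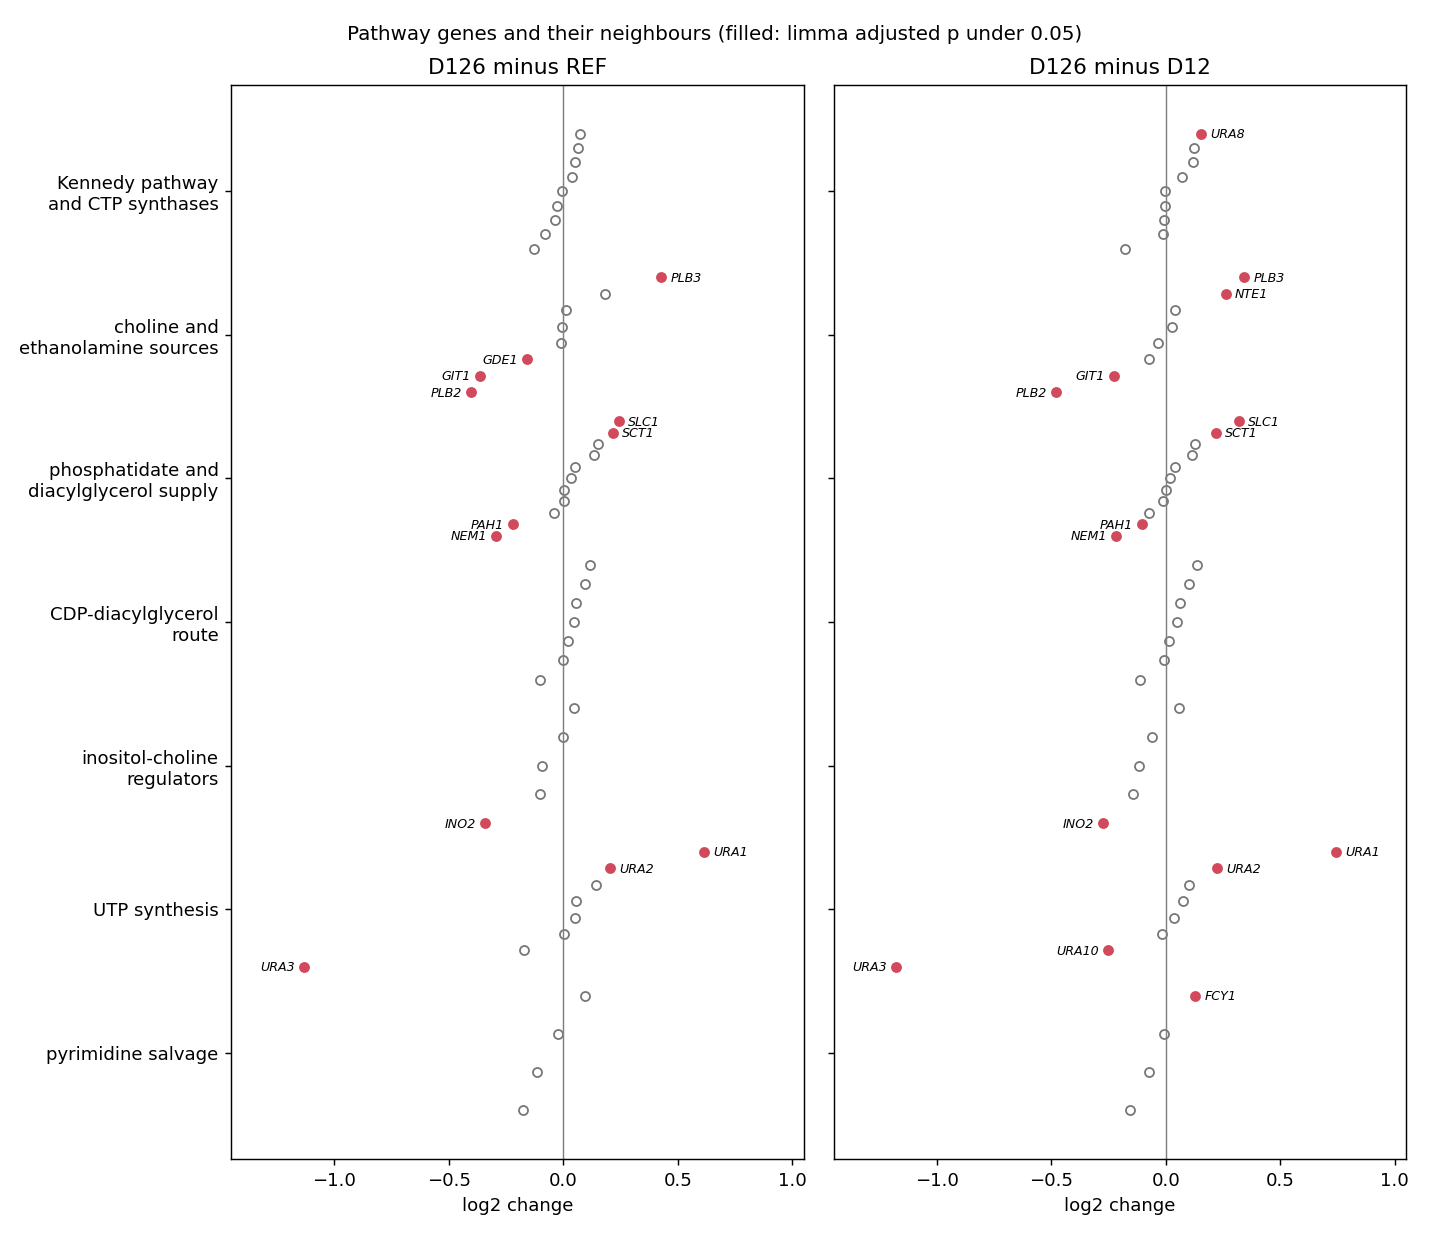
Log2 changes of the pathway genes and of the 6 lists around them (rows), for D126 against REF and against D12, with 1 point per gene and named filled points where limma's adjusted p was under 0.05. The Kennedy pathway points cluster near 0, between -0.18 and 0.16, while URA3 lies at -1.13 and -1.18 and URA1 at 0.62 and 0.74.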

How the data were processed

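RNA of 9 chemostat samples, 3 per strain, was measured on 10928 probe sets. The sample titles gave each array's strain and number. The authors deposited log2 expression values, and the submitters' processing notes name RMA and affy, without versions. RMA gives all arrays a similar distribution, which hides any change in the amount of RNA per cell, and the number of arrays limits the precision.

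Probe sets were named through the platform's gene table, in which 7244 carry 1 gene, 1 several and 3683 none, and matched by gene identifier to the R64 gene table. This gave 5498 probe sets of 5449 yeast genes, with the brightest used for the 47 genes that have several. The 95th percentile of the means of 1746 probe sets named for genes outside that table served as background limit. Limma 3.58.1 in R 4.3.3 fitted strain to all 9 arrays (6 residual and 3.1 prior degrees of freedom) with Benjamini-Hochberg adjustment over the 5449 genes. The fit was tested on simulated data.

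Same-numbered REF and D126 arrays deviated together (correlations of 0.22, 0.18 and 0.13), which comes from the data and not from the labels, so a replicate block was weighed for that pair. For D12 the same correlations were negative, from -0.34 to -0.08 against REF and from -0.28 to -0.02 against D126.

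The members, lists and alternatives were chosen with earlier results of these data known. Named genes are the 9 members, URA3, and for each of the 6 lists and comparisons up to 3 called genes with the largest absolute change, or else 2 given as values. The text does not name all of them. Genes of similar pattern are the 3 with the highest r to each member called by the F-test. SPO7 and GPC1 are named beside the rule, and GIT1, PAH1 and URA2 are given in D126 against D12 beyond its 3 largest changes.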

Additional observations from a re-analysis of the deposited data

How the results depend on the processing

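The 27 member differences were recomputed under 18 alternatives, of which the one without both D12 replicate 3 and D126 replicate 1 was added after seeing the data. Of the 486 values, 439 kept their sign and their side of the threshold, 2 lost a call, 3 gained one and 42, none of them called, changed sign. The causes were not tested. Another probe set of the same gene was not run, since each member has 1.

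With quantile normalization, D126 minus D12 became 0.016 for PCT1, 0.012 for EPT1 and 0.0020 for URA7. With arrays centred on medians it became 0.014 for PCT1, 0.0058 for CPT1, 0.012 for EPT1 and 0.014 for URA7. Array weights called 2 members in D126 against REF, 2 against D12 and 2 by the F-test. They turned D12 minus REF to 0.00061 for PCT1, -0.019 for EKI1 and 0.015 for ECT1, D126 minus REF to 0.051 for URA7, and D126 minus D12 to 0.043 for CPT1 and 0.052 for URA7. Over all non-control probe sets 0 members were called between D126 and D12 and 0 by the F-test.

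With each array left out in turn, D12 minus REF ranged from -0.060 to 0.0020 for PCT1, -0.068 to 0.019 for CPT1, -0.037 to 0.095 for EKI1, -0.082 to 0.016 for ECT1, -0.027 to 0.017 for URA7, -0.071 to 0.012 for PSD1 and -0.011 to 0.10 for PSD2. D126 minus REF ranged from -0.081 to 0.030 for CPT1 and -0.043 to 0.061 for URA7. D126 minus D12 ranged from -0.038 to 0.024 for PCT1, -0.049 to 0.044 for CPT1, -0.072 to 0.040 for EPT1 and -0.039 to 0.065 for URA7. Among values that kept their sign, EPT1 ranged from -0.11 to -0.0064 in D12 minus REF and -0.10 to -0.032 in D126 minus REF, EKI1 from -0.18 to -0.047 in D126 minus REF and -0.23 to -0.092 in D126 minus D12, and ECT1 from 0.055 to 0.15 in D126 minus D12. The F-test count ranged from 0 to 1 and was 0 without REF replicate 1, D12 replicate 2, D126 replicate 2 or D126 replicate 3.

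Without both D12 replicate 3 and D126 replicate 1 the F-test called 0 members. D12 minus REF was then -0.037 for EKI1, 0.016 for ECT1, 0.017 for URA7, 0.012 for PSD1 and -0.00067 for PSD2. D126 minus REF was 0.030 for CPT1 and 0.061 for URA7, and D126 minus D12 was 0.047 for CPT1 and 0.045 for URA7.

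The replicate block with REF and D126 alone called 0 members, and CDD1 was the sole named gene whose call it changed in that comparison. With D12 and D126 alone, whose numbers do not pair, the replicate block called 0 members (URA8 adjusted p = 0.108), and the calls of NTE1 (0.0635), SCT1 (0.0641), URA10 (0.098), NEM1 (0.122) and FCY1 (0.211) were lost as well. With the replicate block over all 9 arrays the F-test called 0. There the calls of NEM1 (adjusted p = 0.0802) and FCY1 (0.0791) between D126 and D12 were lost. CDD1 was called there between D126 and REF (adjusted p = 0.0495).

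Calls over all genes between D126 and REF numbered 1173 (468 higher, 705 lower). They were 630 over all non-control probe sets, 2615 with array weights, 645 without REF replicate 2, 755 without REF replicate 3 and 698 without D126 replicate 3. Between D126 and D12 the 1200 calls (399 higher, 801 lower) became 655 over all non-control probe sets, 2057 with array weights, 780 with these strains alone, 398 with the replicate block there and 683 without D126 replicate 3. With quantile normalization the calls were 592 higher and 670 lower against REF, and 593 higher and 630 lower against D12. With centred arrays they were 536 higher and 703 lower against D12. The F-test's 1096 calls became 583 over all non-control probe sets, 2568 with array weights, 723 without REF replicate 2, and 705, 678 and 538 without D126 replicate 1, 2 and 3. Between D12 and REF 0 or 1 genes were called in each of these settings.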

Other observations

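PCT1 had the same deposited value, 11.2349, on D12 replicate 3 and D126 replicates 1 and 2, and so showed 7 distinct values over its 9 arrays. EKI1 and EPT1 showed 8 distinct values each, and the other members 9.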
